A study of Rattus norvegicus with 18 samples.

Results

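The comparison described here set 3 libraries labelled Glutamate_secret against 3 labelled Glutamate, 6 of the 18 libraries of the series. The members were taken by group label, and libraries with the same replicate number were treated as a pair. All 18 libraries, in 6 groups of 3 held RNA from primary neuroglial cultures of rat brain cortex. The cultures had been prepared from newborn Wistar rats, per the methods of the study. They had reached day 10 in vitro. In the Glutamate group, excitotoxicity was modelled with 100 µM glutamate, and RNA was collected 4 h after the model had been applied. Glutamate_secret cultures went through the same model and had received, the day before, material secreted by glial progenitor cells that were derived from human induced pluripotent stem cells. The series describes a protein fraction of 3 to 100 kDa and a total secretome in addition to extracellular vesicles, and the sample labels do not settle which of the first 2 was given to Glutamate_secret. The names of the deposited counts of this group point to the fraction, whereas its label points to the secretome. The label is therefore used as it stands. The other groups were Control (no glutamate), Memantine (the NMDA receptor blocker memantine at 100 µM, which the design text places in the same model), Glutamate_vesicles and Glutamate_BPC (glutamate after other preparations of the same cells). No label says whether replicates came from separate cultures or animals, so that p-values measure the spread between these libraries, which may be technical.

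Excitotoxicity is the injury of neurons by an excess of glutamate, which opens NMDA and AMPA receptors and floods the cell with calcium. Calcium-dependent kinases then switch on immediate early genes such as Fos, and surviving astrocytes and microglia react with changes of their cytoskeleton, their cytokines and the extracellular matrix around them. The matrix of the brain consists mainly of proteoglycans and glycoproteins, while fibulins and elastic fibre proteins belong chiefly to vessel walls and meninges. Secreted factors of progenitor cells are studied in such models because they can act on neurons and on glia through surface receptors.

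Total counts were 9235035, 15488945 and 9956520 in Glutamate_secret 1, 2 and 3 and 10742159, 10406915 and 11532961 in Glutamate 1, 2 and 3, within the range of 8409574 to 17206354 over all libraries. Ribosomal RNA (rRNA) took 15.8%, 3.04% and 26.6% of the counts in Glutamate_secret and 17.3%, 8.0% and 20.4% in Glutamate. It was thus lower in Glutamate_secret for numbers 1 and 2 and higher for number 3. Genes of ribosomal proteins took 16.5%, 5.86% and 13.6% in Glutamate_secret and 14.4%, 2.90% and 8.21% in Glutamate, higher in Glutamate_secret in all 3 numbers. Both libraries of number 2 had the lowest value of their group in each of these shares, and each result was recomputed without each library in turn. Levels are given in CPM, the counts of a gene relative to all counts of its library, at library sizes scaled with TMM (trimmed mean of M values).

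**Figure D1:**
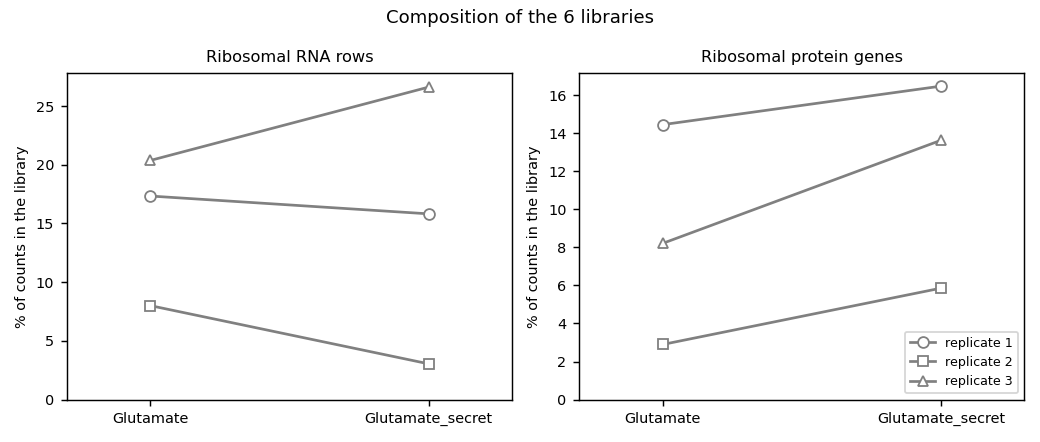
Share of each library's counts in ribosomal RNA rows (left) and in genes of ribosomal proteins (right), in percent, for Glutamate and Glutamate_secret. Lines join libraries of the same replicate number. The rRNA share was higher in Glutamate_secret for number 3 only, and the ribosomal protein share was higher in all 3 numbers.

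Cell type markers were read first, to describe what the cultures held. The summed level of 16 neuronal markers was 1355, 766 and 922 CPM in Glutamate_secret 1, 2 and 3 and 1450, 1036 and 919 CPM in Glutamate, against 2581 to 3490 CPM in Control. The Glutamate_secret and Glutamate ranges overlapped, and both lay below Control. In Control 1, 2 and 3, rRNA took 43.0%, 6.80% and 6.58% of the counts, and Control 1 had the lowest total count of all libraries. Over 12 astrocyte markers the sums were 6990, 7699 and 11030 CPM in Glutamate_secret and 8146, 7124 and 13420 CPM in Glutamate. Markers of the oligodendrocyte lineage summed to between 1062 and 1627 CPM in the first group and between 1287 and 1340 CPM in the second. Neurons, astrocytes and cells of the oligodendrocyte lineage were therefore detected in both groups. The 12 microglial markers summed to 112, 210 and 868 CPM in Glutamate_secret and 161, 140 and 468 CPM in Glutamate, so that libraries with number 3 were the highest in either group. Of 10 endothelial markers, 2 had enough counts to be tested, and the sum of the list stayed between 0.473 and 5.93 CPM in all 6 libraries. In bulk RNA, fewer cells of a type and less RNA per cell cannot be told apart.

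The main question was which genes differed between cultures that had received the preparation and cultures that had met glutamate alone. No gene passed the adjusted threshold. The quasi-likelihood test of edgeR with the replicate number as a block called no gene of 14398 (0, or 0.0%) by the limit of 0.05 for the adjusted p, whose lowest value was 0.938. Before adjustment, 466 genes (3.24%) had a p below 0.05, fewer than the 5% that evenly spread p-values would give. A weaker criterion, a p below 0.05 before adjustment together with a fold change above 1.5, was met by 463 genes (3.22%). Of these, 267 (1.85%) were higher and 196 (1.36%) were lower in Glutamate_secret. Below, genes are called higher or lower from their values, and meeting this unadjusted criterion is stated as a description.

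Other fits called single genes. The likelihood-ratio test of edgeR called 3 genes, Fbln2 (adjusted p = 0.0079), Gemin7l1 (adjusted p = 0.0079) and, lower in Glutamate_secret, Mrc1 (adjusted p = 0.00512). DESeq2 called Fbln2 (adjusted p = 0.0054), Gemin7l1 (adjusted p = 0.0252) and Mfap4 (adjusted p = 0.0477). When edgeR was given the log2 rRNA share as a covariate, Fbln2 (adjusted p = 0.0102) was called higher, and Myrf (adjusted p = 0.0102) and Rsad2 (adjusted p = 0.00525) were called lower. Fitting only the 6 libraries of the 2 groups gave 1 call, Mfap4 (adjusted p = 0.0241). Fbln2 was thus called in 3 of these fits, Mfap4 and Gemin7l1 in 2 each, and none of them in the quasi-likelihood test on all libraries.

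Across all tested genes the log2 fold change was above 0 in 49.8%. The 2 groups had separate CPM ranges in 491 genes (3.41%), with Glutamate_secret above in 201 (1.4%) and below in 290 (2.01%). The direction was the same in every replicate number for 2969 genes that were higher (20.6%) and 2997 that were lower (20.8%). Of the 463 genes that met the unadjusted criterion, 462 kept their direction when each of the 6 libraries was left out in turn. Only 40 (0.278% of all tested genes), 19 higher and 21 lower, met the criterion in all 6 of these fits. Without the replicate block the criterion was met by 97 genes, and 93 genes (0.646%) met it with and without the block. The number that met it moved by more than 1.5 times with each single library, to 308, 1183 and 234 without Glutamate_secret 1, 2 and 3 and to 898, 211 and 191 without Glutamate 1, 2 and 3.

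**Figure D2:**
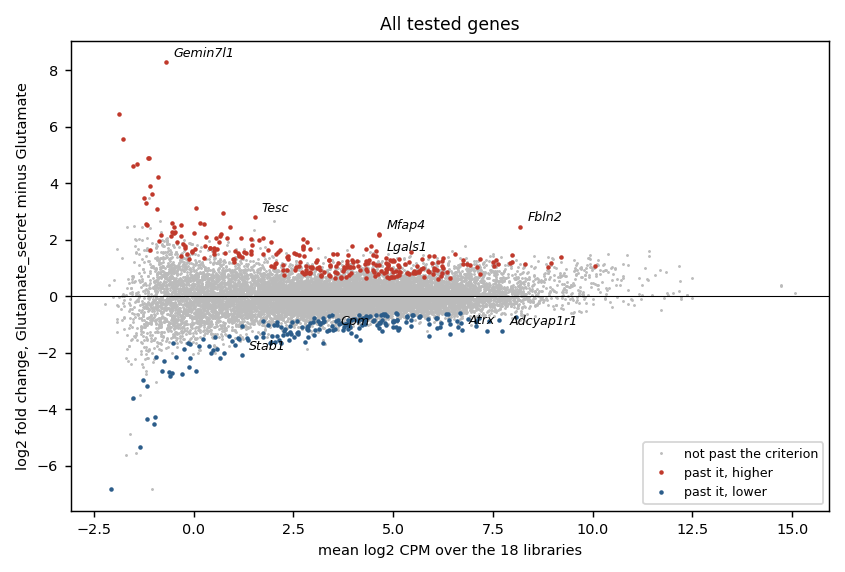
Log2 fold change (Glutamate_secret minus Glutamate) of the 14398 tested genes against their mean log2 CPM over the 18 libraries. Each point is 1 gene, and coloured points mark the 267 higher and 196 lower genes that met the unadjusted criterion. The largest log2 fold changes lay at low CPM, whereas Fbln2 combined a high level with a log2 fold change of 2.46.

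Among the genes of smallest p, 2 encode proteins of elastic fibres. Fbln2, which encodes fibulin-2, a glycoprotein that binds elastin and basement membrane proteins, had 723, 447 and 1862 CPM in Glutamate_secret 1, 2 and 3 and 304, 121 and 135 CPM in Glutamate. The lowest Glutamate_secret library was above the highest Glutamate library. The log2 fold change was 2.46 ± 0.51 (SE). Glutamate_secret 3 had the highest level, and without it the log2 fold change was 1.68. Mfap4, a microfibril-associated glycoprotein that also binds elastin, had 79.9, 36.8 and 110 CPM in Glutamate_secret and 16.8, 8.19 and 25.0 CPM in Glutamate. Again the ranges did not overlap, and the log2 fold change was 2.19 ± 0.49. Control libraries had 316, 96.1 and 71.7 CPM of Fbln2 and 10.6, 4.81 and 12.7 CPM of Mfap4, in each case below every Glutamate_secret library.

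Gemin7l1 was the clearest case of a gene present in one group and listed at 0 in the other. It had 33, 26 and 19 counts in Glutamate_secret 1, 2 and 3 and 0 in each Glutamate library. With a floor of 3 counts over the Glutamate group, it was at least 25.5-fold higher in Glutamate_secret. The name marks a copy of Gemin7, a component of the complex that assembles spliceosomal small nuclear ribonucleoproteins, and reads shared with such a copy make its counts uncertain. Its mean was 1.37 CPM in Glutamate_vesicles, 1.10 CPM in Glutamate_BPC, 0.431 CPM in Memantine and 0.155 CPM in Control.

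Other leading genes with a higher level belonged to several functions. Nrarp, a target and feedback inhibitor of Notch signalling, had 25.5, 58.8 and 35.7 CPM in Glutamate_secret against 18.3, 21.1 and 13.9 CPM in Glutamate. Apcdd1, a membrane-bound inhibitor of Wnt signalling, had 15.6, 41.3 and 17.4 CPM against 9.04, 14.2 and 11 CPM. Neither gene overlapped between the groups, and their log2 fold changes were 1.09 ± 0.34 and 1.03 ± 0.34. Lgals1, which encodes the sugar-binding lectin galectin-1, had 148, 9.78 and 238 CPM against 47.9, 1.27 and 47.1 CPM. It was higher in every replicate number, but the ranges overlapped because both libraries of number 2 were far below the others. Calca, the gene of calcitonin gene-related peptide, had 15, 4.91 and 9.59 CPM against 6.59, 0.889 and 0.778 CPM. Glt8d1, a glycosyltransferase-like protein, had 50.4, 24.0 and 64.1 CPM against 29.7, 13.6 and 26.0 CPM. Both were likewise higher within each number with overlapping ranges.

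Tesc, a calcium-binding regulator of the sodium-proton exchanger NHE1, had 10.4, 1.42 and 22.8 CPM in Glutamate_secret and 3.36, 0.0635 and 1.95 CPM in Glutamate. Its log2 fold change of 2.80 ± 0.75 was the highest of the 12 leading genes on this side. Pigbos1, which encodes a mitochondrial microprotein and lies opposite the gene Pigb, had 7.25, 3.80 and 12.9 CPM against 2.32, 0.698 and 3.11 CPM, and its ranges did not overlap. No source used here gives the strand setting of the counting, so that reads of Pigb could be included. Fxyd5, a regulator of the sodium pump, Mycbp, a binding partner of the transcription factor Myc, and Spata48 completed the list with log2 fold changes of 1.91 ± 0.58, 1.16 ± 0.35 and 1.63 ± 0.50. All 12 were higher in each of the 3 numbers, which the rule required, and 10 met the unadjusted criterion in all 6 fits without 1 library. The exceptions, Mycbp and Apcdd1, met it in 5. Lgals1, Spata48 and Mycbp did not meet the criterion in the fit without the replicate block. The other leading genes on this side did.

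The leading genes with a lower level included surface receptors and nuclear proteins. Stab1, a scavenger receptor of macrophages and sinusoidal endothelium, had 0.473, 2.34 and 0.543 CPM in Glutamate_secret and 1.29, 8.57 and 5.25 CPM in Glutamate. It was lower within each number, its ranges overlapped, and the log2 fold change was -2.08 ± 0.50. Stab1 did not meet the unadjusted criterion in the fit without the replicate block, whereas the other leading genes on this side did. Cpm, the gene of carboxypeptidase M, a membrane enzyme that trims peptides (not to be confused with the unit), had 7.72, 10.2 and 11.6 CPM against 22.7, 24.7 and 21.0 CPM. The spread within either group was small beside the gap between them, with means of 9.83 ± 1.96 CPM and 22.8 ± 1.84 CPM (SD, n = 3 each). Slc13a3, a sodium-coupled dicarboxylate transporter, had 12.3, 10.7 and 9.78 CPM against 22.5, 29.7 and 30.2 CPM, and its groups were equally separate. Their log2 fold changes were -1.20 ± 0.35 and -1.31 ± 0.39.

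Adcyap1r1, the receptor of the neuropeptide PACAP, had 111, 221 and 91.6 CPM in Glutamate_secret and 192, 516 and 310 CPM in Glutamate. Vip, a neuropeptide of the same family made by a class of cortical interneurons, had 2.99, 1.90 and 0.905 CPM against 5.68, 5.27 and 3.21 CPM. Vip did not overlap between the groups, whereas Adcyap1r1 did, and the log2 fold changes were -1.33 ± 0.42 and -1.23 ± 0.36. Atrx, a chromatin remodeller, had 64.9, 97.4 and 63.7 CPM against 114, 221 and 176 CPM. Hic2, a transcriptional repressor, had 2.52, 1.73 and 0.543 CPM against 3.75, 4.57 and 3.79 CPM. Both were separate between the groups, with log2 fold changes of -1.19 ± 0.38 and -1.44 ± 0.45. Ptpre, a tyrosine phosphatase, and Lhfpl2, a tetraspan membrane protein, were also separate, at -1.08 ± 0.34 and -1.08 ± 0.31. Eeig1, Iws1 and the non-muscle myosin gene Myh14 overlapped between the groups and had log2 fold changes of -1.23 ± 0.34, -0.90 ± 0.28 and -1.10 ± 0.35. The 12 genes on this side met the unadjusted criterion in all 6 fits without 1 library, and the adjusted p was 0.938 for each of the 24.

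**Figure D3:**
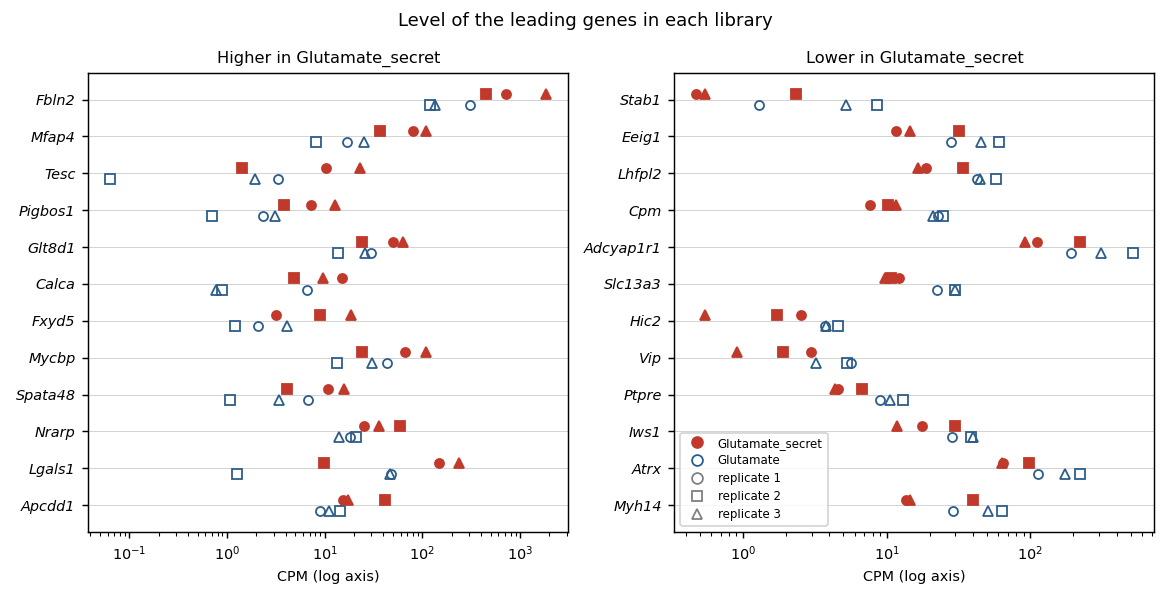
CPM, on a log axis, of the 12 leading genes that were higher (left) and the 12 that were lower (right) in Glutamate_secret, with 1 symbol per library, filled for Glutamate_secret and open for Glutamate. Circle, square and triangle mark replicates 1, 2 and 3. Fbln2 and Cpm show filled symbols apart from open ones, whereas the square of Lgals1 lies far below its other symbols in both groups.

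The promoters of leading genes are shown to give the sequence context of the 2 sides. Windows of 250 bases before the annotated start were taken from RefSeq (assembly GRCr8, not the build of the files), which had an entry for 9 of the 12 higher and all 12 lower genes. They were searched on both strands for 5 motifs, the AP-1 site TGANTCA, the E-box CACGTG, the SMAD sequence CAGACA, the antioxidant response element TGACNNNGC and a serum response element. Shares are given over the 27457 gene symbols with a promoter there, counting a symbol if any of its windows held the motif. Neither the AP-1 site (6.99% of symbols) nor the serum response element (0.0364%) was found on either side. An E-box, held by 6.18% of all symbols, was found for Nrarp and Slc13a3. The SMAD sequence, held by 18.2%, was found for Calca among the higher and for Stab1, Hic2 and Ptpre among the lower genes. The antioxidant response element, held by 11%, was found for Slc13a3 only. These are letter matches and not evidence of binding. Motif letters are in capitals in the windows of Fbln2 (chr4:125261409-125261658, plus strand, no motif), Nrarp (chr3:28390495-28390744, plus strand, E-box), Slc13a3 (chr3:174623894-174624143, minus strand, E-box at 2 places and antioxidant response element) and Stab1 (chr16:6367360-6367609, minus strand, SMAD sequence on the opposite strand), written 5′ to 3′ in the direction of the gene.
Fbln2: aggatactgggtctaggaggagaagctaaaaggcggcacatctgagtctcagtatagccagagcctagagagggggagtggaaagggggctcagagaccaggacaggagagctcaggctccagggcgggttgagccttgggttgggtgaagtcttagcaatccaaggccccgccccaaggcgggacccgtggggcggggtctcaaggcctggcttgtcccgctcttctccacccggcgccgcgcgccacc
Nrarp: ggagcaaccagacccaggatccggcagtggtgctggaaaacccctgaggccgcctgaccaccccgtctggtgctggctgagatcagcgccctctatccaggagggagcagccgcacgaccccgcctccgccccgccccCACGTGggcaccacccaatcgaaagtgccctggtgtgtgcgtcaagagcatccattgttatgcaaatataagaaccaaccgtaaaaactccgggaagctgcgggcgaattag
Slc13a3: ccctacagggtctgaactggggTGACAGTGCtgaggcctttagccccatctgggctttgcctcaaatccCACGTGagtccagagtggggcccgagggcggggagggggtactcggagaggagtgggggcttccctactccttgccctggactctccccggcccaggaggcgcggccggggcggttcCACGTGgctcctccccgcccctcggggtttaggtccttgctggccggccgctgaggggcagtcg
Stab1: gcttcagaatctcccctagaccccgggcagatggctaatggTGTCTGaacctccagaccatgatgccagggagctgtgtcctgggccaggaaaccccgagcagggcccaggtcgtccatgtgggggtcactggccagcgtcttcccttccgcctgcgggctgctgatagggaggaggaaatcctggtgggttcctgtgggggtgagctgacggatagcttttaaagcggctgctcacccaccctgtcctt

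Gene lists were then read by the number of members past the unadjusted criterion, to be set against 1.85% (higher) and 1.36% (lower) of all tested genes. Of 31 lists, 3 had the same counts in all 6 fits without 1 library, and in 16 the median kept its sign. Matrix genes came first. Among 22 tested genes of matrix glycoproteins and fibulins, 3 met the unadjusted criterion with a higher level (Fbln2, Mfap4 and Fbln5) and 1 with a lower level (Eln), against 1.85% and 1.36% of all genes, and the median log2 fold change was -0.04 (-0.0028 over all genes). Fbln5, which helps to assemble elastic fibres, had 27.7, 67.2 and 25.2 CPM in Glutamate_secret and 17.4, 30.1 and 18.1 CPM in Glutamate, with overlapping ranges. Eln, the gene of elastin itself, had 12.4, 18.1 and 12.7 CPM against 27.0, 24.8 and 28.3 CPM, entirely below. The members of the elastic fibre group thus lay on both sides, and the related Fbln1 had 4.73, 7.52 and 2.90 CPM against 3.36, 7.11 and 7.30 CPM. Fbln1 was named after its values were seen. Without Glutamate_secret 2, 2 members met the criterion with a higher and 4 with a lower level. Without the replicate block, 2 met it with a higher level and 1 with a lower level, and Fbln5 did not. None of 18 collagen chains met the criterion, and their median log2 fold change was -0.03. Without Glutamate_secret 2, however, 4 of them met it with a lower level and the median was -0.67, and without Glutamate_secret 3 the median was 0.32.

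Of 18 tested matricellular proteins and proteoglycans, 4 met the unadjusted criterion with a higher level (1.85% of all genes) and 0 with a lower level (1.36%), and the median log2 fold change was 0.32. Bgn, which encodes the small proteoglycan biglycan, had 23.5, 65.4 and 73.0 CPM in Glutamate_secret and 9.04, 10.9 and 32.6 CPM in Glutamate. Spp1, the gene of the phosphoprotein osteopontin, had 29.0, 173 and 156 CPM against 19.0, 20.4 and 82.0 CPM. Both were higher within each number with overlapping groups, at log2 fold changes of 1.78 ± 0.65 and 1.56 ± 0.64. Thbs4, a thrombospondin, had 4.88, 11.5 and 2.72 CPM against 0.904, 5.14 and 2.82 CPM and was not higher for number 3. Postn, or periostin, rested on 0, 52 and 3 counts against 0, 3 and 0, that is on Glutamate_secret 2. Without that library, 0 of the 18 met the criterion and the median was 0.01, and 1 met it without Glutamate 2 or without Glutamate 3. Without the replicate block, Postn alone met it, and Bgn, Spp1 and Thbs4 did not.

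Metalloproteinases and their inhibitors gave no gene past the criterion among 14 tested, with a median of 0.04. Timp1, the inhibitor of metalloproteinases that reactive astrocytes produce, had 492, 158 and 322 CPM in Glutamate_secret and 414, 24.6 and 115 CPM in Glutamate, against 40.8, 20.4 and 51.9 CPM in Control. It was higher in each number at a log2 fold change of 1.26 ± 0.60, and the ranges overlapped. Among 20 genes of the TGF-beta and BMP pathway, which controls matrix synthesis, 0 met the criterion with a higher (1.85% of all genes) and 2 with a lower level (1.36%). Tgfb2, a ligand, had 51.5, 35.8 and 47.2 CPM in Glutamate_secret and 85.9, 91.0 and 104 CPM in Glutamate. Bmp4, another ligand, had 40.2, 21.5 and 19.0 CPM against 50.5, 41.3 and 59.3 CPM. Neither ligand overlapped between the groups, at -1.11 ± 0.40 and -0.93 ± 0.39, while the median of the pathway was -0.05. The count of 2 was 1 without any one of the Glutamate_secret libraries and 0 without Glutamate 3, and the median was -0.36 without Glutamate_secret 2 and 0.18 without Glutamate_secret 3.

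The contractile protein gene Tagln, 1 of 6 tested markers of fibroblasts and mural cells, met the unadjusted criterion with 808, 333 and 769 CPM in Glutamate_secret and 393, 50.5 and 395 CPM in Glutamate. Of all genes, 1.85% met it with a higher level. Without Glutamate 2 or without the replicate block, 0 of the 6 markers met it. The summed level of the 12 markers of these cells was 836, 415 and 797 CPM against 422, 95.1 and 415 CPM, most of it Tagln. The sums were higher within each number, but Glutamate 1 and 3 were level with Glutamate_secret 2. Dcn, Lum, Rgs5, Kcnj8, Abcc9 and Acta2 had too few counts to be tested, and none of the 12 was at 0 in all 6 libraries. How far such cells were part of the differences in Fbln2, Mfap4 and Bgn was not tested.

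**Figure D4:**
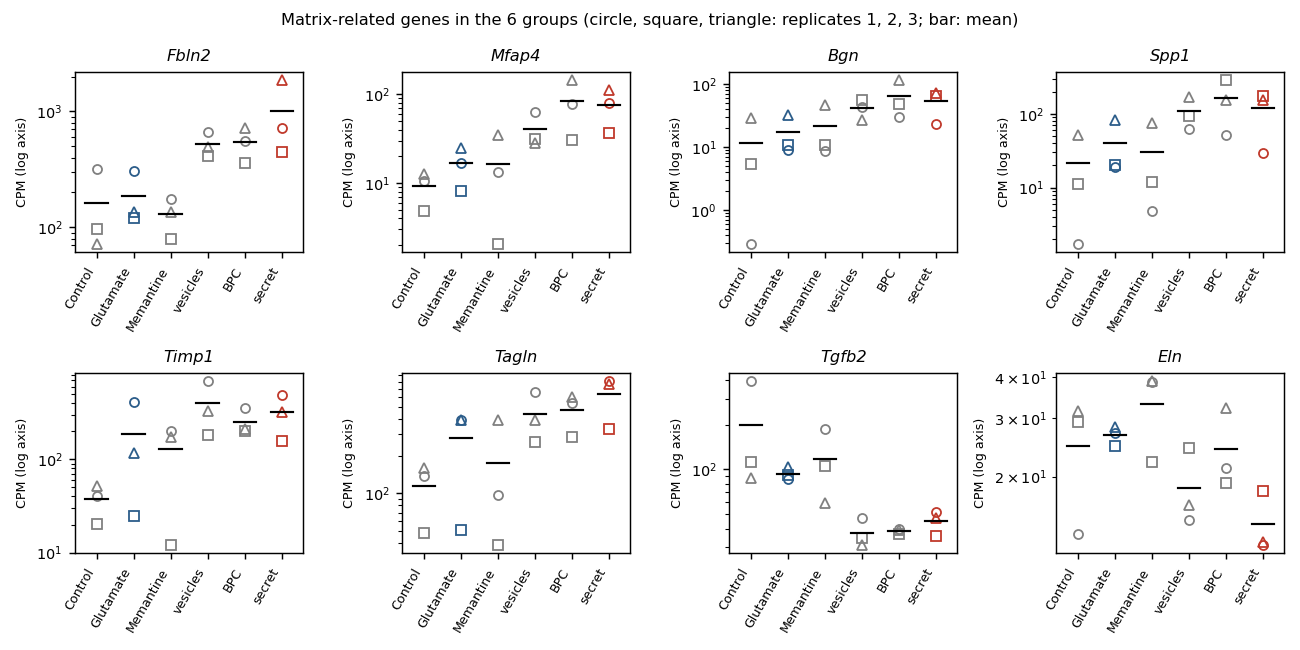
CPM, on log axes, of 8 matrix-related genes in the 6 groups, with circle, square and triangle for replicates 1, 2 and 3 and a bar for the group mean. Fbln2 and Mfap4 were above all Glutamate libraries in each Glutamate_secret library, and Tgfb2 and Eln were below them.

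The levels in the other groups set these genes in context. They share the Glutamate libraries as their reference and are therefore given side by side as levels. Mean Fbln2 was 1010.4 ± 750.1 CPM in Glutamate_secret, 187 ± 102 CPM in Glutamate, 520 CPM in Glutamate_vesicles, 544 CPM in Glutamate_BPC, 130 CPM in Memantine and 161 CPM in Control (n = 3 each). For Mfap4 the means were 75.6, 16.7, 41.1, 84.1, 16.6 and 9.36 CPM in the same order. Tgfb2 had 44.8, 93.7, 37.6, 38.4, 118 and 198 CPM. In these 3 genes, picked after their values were seen, the means of the groups with a preparation of progenitor cells lay together on one side, and Glutamate, Memantine and Control on the other. The spread within groups was wide. Tgfb2 had 393, 113 and 87.0 CPM in Control 1, 2 and 3, so that its Control mean rested largely on Control 1. Its SD in Memantine was 65.2 CPM, and that of Mfap4 in Glutamate_BPC was 57.0 CPM.

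Direct tests between preparations called no gene in the quasi-likelihood fit of edgeR, and 1 gene each in DESeq2. Against Glutamate_BPC, edgeR called no gene (0 of 14398, 0.0%), with a lowest adjusted p of 1 and 177 genes below 0.05 before adjustment (1.23%), all of which met the unadjusted criterion, 112 with a higher level (0.778%) and 65 with a lower level (0.451%). DESeq2 called 1 gene, Scd, a desaturase of fatty acid synthesis, which had 36.2, 191 and 52.3 CPM in Glutamate_secret against a mean of 244 CPM in Glutamate_BPC (adjusted p = 0.0219, log2 fold change -1.76). In edgeR, Scd had a log2 difference of -1.78, Vip of -1.84 and Dmpk, a kinase gene of muscle and brain, of 2.15. Fbln2 differed by 0.86 ± 0.48 (SE) and Mfap4 by -0.04 ± 0.47 between Glutamate_secret and Glutamate_BPC. The first difference did not pass the threshold, and the second was smaller than its error. Without Glutamate_secret 2 the criterion was met by 653 genes, and without Glutamate_secret 3 by 81.

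Against Glutamate_vesicles, edgeR called 0 genes (0.0%), with a lowest adjusted p of 0.701 and 542 genes (3.76%) below 0.05 before adjustment. The unadjusted criterion was met by 540 genes (3.75%), of which 329 (2.29%) had a higher and 211 (1.47%) a lower level. DESeq2 called 1 gene, the imprinted non-coding RNA H19, lower in Glutamate_secret (adjusted p = 0.0444, log2 fold change -3.99). Gja5, the gene of connexin 40, a gap junction protein of vessels and heart, had 3.15, 4.38 and 3.26 CPM in Glutamate_secret, 2.20, 0.381 and 1.65 CPM in Glutamate and a mean of 18.5 CPM in Glutamate_vesicles. Its log2 difference from Glutamate_vesicles was -2.27 ± 0.56 (adjusted p = 0.701), and against Glutamate it met the unadjusted criterion on the higher side with ranges apart. Vip (-1.59) and Adamts7, a metalloproteinase (-1.40), were the other leading genes of this comparison. The count of 540 was 2060 without Glutamate_secret 2, 69 without Glutamate_secret 3, 294 without Glutamate_vesicles 1 and 95 without Glutamate_vesicles 3.

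Genes of the glutamate response were taken up next, beginning with immediate early genes. Of 19 tested, 0 met the unadjusted criterion with a higher (1.85% of all genes) and 3 with a lower level (1.36%), all of them transcription factors, and the median log2 fold change was 0.05. Klf6 had 188, 74.9 and 110 CPM in Glutamate_secret and 340, 198 and 169 CPM in Glutamate. Klf4 had 10.7, 11.4 and 5.43 CPM against 20.8, 15.8 and 19.7 CPM, and Atf3 had 27.7, 16.5 and 7.78 CPM against 50.6, 30.3 and 28.5 CPM. Klf4 and Atf3 did not overlap between the groups, and all 3 genes were lower within each number. In Control, Atf3 stood at 8.57, 7.17 and 9.96 CPM and Klf4 at 7.99, 3.63 and 3.77 CPM, below every library of both groups other than Glutamate_secret 3. The lower count of 3 was 1 without Glutamate_secret 3 or Glutamate 3, and without the replicate block 0 of the 19 met the criterion. With a higher level, 2 met it without Glutamate 1 and 1 without Glutamate_secret 3. The median ranged from -0.31 to 0.06 without single libraries.

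Fos itself had 31.0, 27.6 and 48.9 CPM in Glutamate_secret and 27.6, 43.5 and 80.2 CPM in Glutamate, with a log2 fold change of -0.49 ± 0.37 and a higher level for number 1. Arc, a synaptic plasticity gene, had 0.945, 2.92 and 0.362 CPM against 0, 4.51 and 4.09 CPM. Bdnf, which encodes brain-derived neurotrophic factor, had 4.10, 4.47 and 2.17 CPM against 7.88, 5.21 and 2.92 CPM. These 3 overlapped between the groups, and Npas4 had 0 counts in Glutamate_secret and 3 in Glutamate and was not tested. None of 12 activity-induced neuronal genes and none of 12 brakes on ERK signalling met the criterion, at medians of -0.14 and -0.03.

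Glutamate receptor subunits lay mostly on the lower side. Of 21 tested, 19 had a log2 fold change below 0 (over all genes, 49.8% were above 0), and the median was -0.54. In each number 10 were lower (20.8% of all genes). Only Grm3, a metabotropic receptor of astrocytes and neurons, met the unadjusted criterion, with a lower level (1.36% of all genes). It had 2.21, 3.58 and 4.34 CPM in Glutamate_secret and 5.04, 9.40 and 8.17 CPM in Glutamate. Gria2, the AMPA receptor subunit that limits calcium entry, had 64.7, 128 and 55.6 CPM against 56.2, 252 and 127 CPM and was higher for number 1. Grin1, the obligatory NMDA receptor subunit, had 33.2, 18.5 and 19.6 CPM against 41.6, 18.7 and 16.0 CPM, a log2 fold change of -0.03 ± 0.51. In Control, Grin1 had 44.0, 98.1 and 94.1 CPM, above both groups for each number. Gria2 and Grin1 were named after their values were seen. The median of the subunits ranged from -0.63 to -0.39 when single libraries were left out. The lower count was 0 without Glutamate_secret 1 or Glutamate 2, and 2 without Glutamate_secret 2 or Glutamate 1. A log2 fold change below 0 was found in 16 of 22 subunits without Glutamate 2, and in 17 of 21 in DESeq2.

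Synaptic and calcium genes gave no member past the criterion, although 1 synaptic gene met it with a higher level without Glutamate_secret 2. Of 19 genes of synaptic vesicles and release, 11 had a log2 fold change below 0, at a median of -0.04, which lay between -0.27 and 0.15 without single libraries. Of 22 calcium channels and pumps, 16 were below 0 and 7 were lower within each number (20.8% of all genes). Their median was -0.08, and it was -0.41 without Glutamate_secret 3. Snap25, a fusion protein of synaptic vesicles, had 14.0, 34.6 and 7.60 CPM in Glutamate_secret and 9.94, 29.5 and 14.2 CPM in Glutamate, against 34.3, 99.9 and 105 CPM in Control. Slc17a7, the vesicular glutamate transporter, had 19.4, 4.6 and 20.3 CPM against 16.4, 3.81 and 4.09 CPM, with 51.4 to 78.3 CPM in Control. Both genes overlapped between the groups and stood below the Control library of the same number. Rbfox3, which encodes the neuronal nuclear protein NeuN, was the 1 of 16 neuronal markers past the criterion, with 34.0, 19.3 and 19.2 CPM against 47.3, 54.3 and 43.3 CPM. It was the only marker list member of the neurons with that result, and the median over the list was -0.17. Of all genes, 1.36% met the criterion with a lower level. The lower count of 1 was 0 without Glutamate_secret 1, Glutamate_secret 2, Glutamate 2 or Glutamate 3, and 0 without the replicate block. The median lay between -0.36 and 0.04 without single libraries.

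Astrocyte, microglial and oligodendrocyte markers gave no gene past the unadjusted criterion among 11, 12 and 12 tested. Their medians were -0.25, 0.18 and -0.35. Without single libraries these ranged from -0.74 to -0.20, from -0.00 to 0.57 and from -0.49 to -0.04, and without the replicate block the microglial median was 0.47 with 11 of 12 markers above 0. Gfap, the intermediate filament of astrocytes, had 3498, 3188 and 5589.7 CPM in Glutamate_secret and 4142, 2115 and 7559 CPM in Glutamate, with a log2 fold change of -0.06 ± 0.50 and no consistent sign over the numbers. Aldoc, an astrocytic glycolytic enzyme, had 360, 167 and 309 CPM against 609, 274 and 699 CPM. Aif1, the microglial protein IBA1, had 12.9, 13.2 and 105.5 CPM against 14.3, 5.59 and 32.2 CPM, with the highest level in number 3 of each group. Aldoc was lower within each number with overlapping ranges.

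Stress pathways that follow excitotoxic calcium entry showed few genes past the criterion. None of 20 genes of the integrated stress response (median -0.14), 18 endoplasmic reticulum chaperones (-0.10) or 21 apoptosis regulators (-0.22) met it. Without Glutamate_secret 1 or Glutamate_secret 2, however, 1 apoptosis regulator met it with a lower level, and without Glutamate 1, 1 with a higher level. Without Glutamate_secret 2, 1 chaperone met it with a lower level. Ddit3, the stress transcription factor CHOP, had 192, 40.1 and 104 CPM in Glutamate_secret and 211, 21.9 and 70.1 CPM in Glutamate. Bax, a death effector at mitochondria, had 198, 55.0 and 224 CPM against 154, 21.8 and 96.9 CPM, higher within each number at 0.90 ± 0.47. Among 19 antioxidant targets of NRF2 (median 0.14), 1 met the criterion with a higher (1.85% of all genes) and 1 with a lower level (1.36%). Txn1, which encodes thioredoxin, was higher with 583, 176 and 787 CPM against 430, 54.0 and 263 CPM. Osgin1, a growth inhibitor induced by oxidative stress, was lower with 11.3, 10.8 and 2.72 CPM against 22.1, 13.2 and 8.66 CPM. Neither of the 2 genes met the criterion without the replicate block. Of the 6 fits without 1 library, Txn1 met it in 3 and Osgin1 in 2. The median of the NRF2 list was -0.10 without Glutamate 2. Hmox1, the haem-degrading enzyme of this list, had 342, 480 and 175 CPM against 697, 393 and 327 CPM, a log2 fold change of -0.59 ± 0.52 with a higher level for number 2. Of 18 heat shock proteins (median -0.13), the inducible chaperone gene Hspa1a met the criterion with 24, 31 and 5 counts against 6, 4 and 12, and it was lower for number 3. Of all genes, 1.85% met the criterion with a higher level. The higher count of this list was 0 without Glutamate_secret 2, Glutamate 2 or the replicate block. Without Glutamate_secret 2, 2 members met it with a lower level.

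Metabolic genes were read in the same way. Of 20 genes of glycolysis and hypoxia, 2 met the criterion with a lower level (1.36% of all genes), the hexokinases that commit glucose to the cell. That count was 0 without Glutamate_secret 1, 1 without Glutamate_secret 2 or 3 and 1 without Glutamate 2 or 3. Hk2 had 19.4, 14.5 and 18.5 CPM in Glutamate_secret and 40.4, 32.5 and 25.3 CPM in Glutamate, entirely below, and Hk1 had 86.5, 180 and 53.9 CPM against 122, 256 and 182 CPM. Their log2 fold changes were both -0.88, with SE of 0.33 and 0.37, while the median of the list was 0.08. Of 21 genes of cholesterol synthesis and uptake, 16 had a log2 fold change below 0, and the median was -0.27. Within each number 10 were lower (20.8% of all genes). Idi1, an early enzyme of isoprenoid synthesis, was the 1 gene past the criterion, with 90.1, 70.7 and 48.3 CPM against 91.6, 166 and 159 CPM, just apart between the groups. Of all genes, 1.36% met it with a lower level. The lower count of 1 was 0 without Glutamate_secret 2, Glutamate_secret 3, Glutamate 2 or Glutamate 3, and 0 without the replicate block.

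The most uniform group was that of ribosomal proteins. All 23 tested genes of cytosolic ribosomal proteins had a log2 fold change above 0, 22 were higher within each number, and the median was 0.76, but 0 met the unadjusted criterion. Without Glutamate 1, 3 of them met it, and without Glutamate_secret 2, 1 did. Rplp1, a protein of the ribosomal stalk, had 12857, 1071 and 14354 CPM in Glutamate_secret and 9608, 300.4 and 3232 CPM in Glutamate, a log2 fold change of 1.43 ± 0.73. Its levels differed more between numbers within a group than between the groups, and library 2 was the lowest on each side. Nuclear genes of oxidative phosphorylation leaned the same way, with 19 of 23 above 0, a median of 0.37 and 0 past the criterion. Without Glutamate 1, 7 of the 23 were past it at a median of 0.59, and without Glutamate_secret 2 there were 2. Cox6c, a subunit of cytochrome c oxidase, had 448, 76.6 and 497 CPM against 347, 32.0 and 169 CPM. The median of the ribosomal proteins stayed between 0.43 and 1.03 without single libraries. The rRNA share moved in different directions in the 3 numbers, as given above, and with its log2 value in the fit all 23 were above 0 at a median of 0.88.

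Signalling and growth genes gave single members past the criterion. Of 21 cell cycle genes, 2 were past it with a higher level (1.85% of all genes), and 11 were higher within each number (20.6% of all genes) at a median of 0.19. The count was 0 without Glutamate_secret 1, Glutamate_secret 3, Glutamate 2 or Glutamate 3, and 0 without the replicate block. Cdk1, the mitotic kinase, had 53.2, 28.8 and 67.7 CPM in Glutamate_secret and 29.8, 14.9 and 38.1 CPM in Glutamate, and Aurka, another mitotic kinase, had 26.5, 13.5 and 30.8 CPM against 14.6, 9.40 and 16.5 CPM. Both overlapped between the groups. None of 18 genes of the STAT3 and interferon response met the criterion (median -0.29), nor did any of 15 cytokines and NF-kB targets (0.19). The latter median was -0.23 without Glutamate 3 and -0.12 without the block, and 2 members met the criterion without Glutamate 1. For the STAT3 and interferon genes, 2 were past it with a lower level without Glutamate_secret 1, Glutamate 1 or Glutamate 3. Mx2, an antiviral interferon target, had 6.14, 7.43 and 10.9 CPM against 7.23, 66.1 and 27.4 CPM and was lower within each number. Of 16 neurotrophic factors and receptors, Pdgfb was past the criterion on 11 counts in Glutamate_secret 2 alone and 0 in the other 5 libraries, and the median was -0.15. Of 7 connexins and pannexins, Gja5 alone was past it, at a median of -0.13. Of all genes, 1.85% were past it with a higher level. The neurotrophic count was 0 without Glutamate_secret 2, Glutamate 2, Glutamate 3 or the replicate block, and 2 without Glutamate 1. For connexins and pannexins, the higher count was 0 without Glutamate 2. Without Glutamate_secret 2 it was also 0, and 1 member was past the criterion with a lower level.

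**Figure D5:**
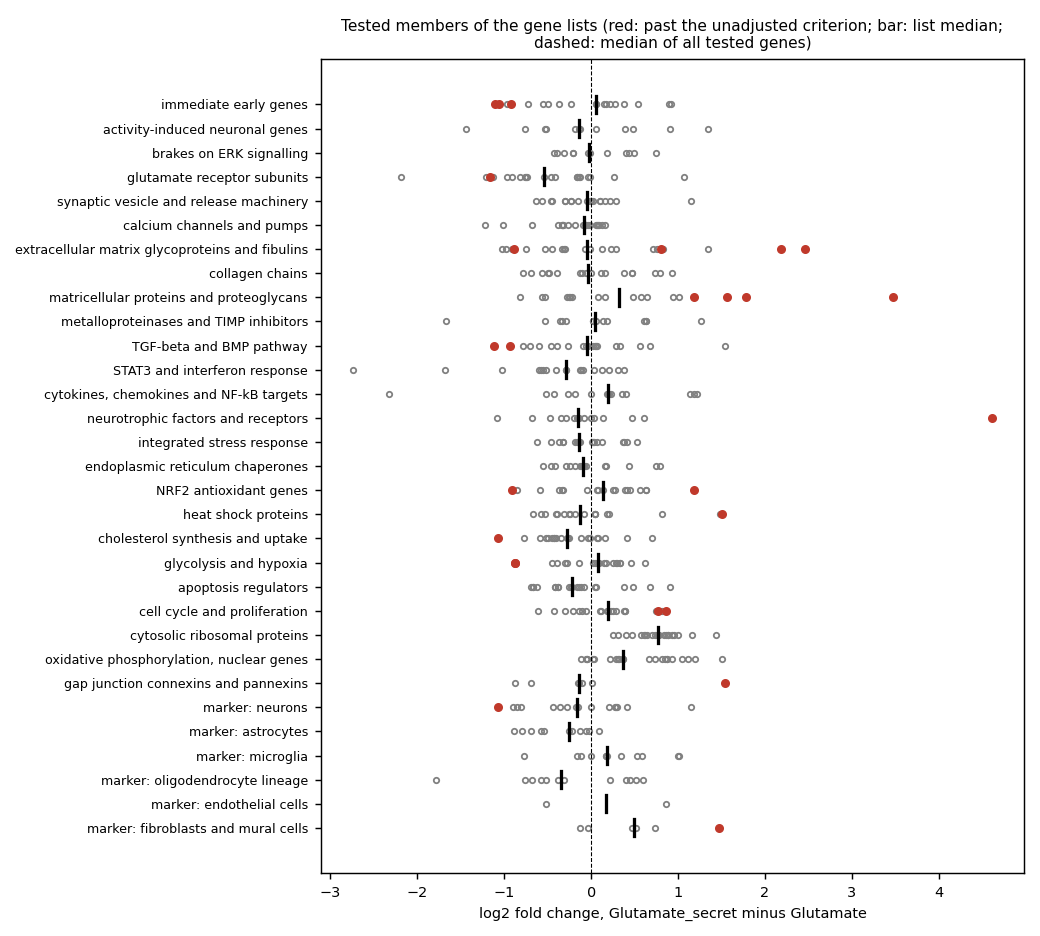
Log2 fold change (Glutamate_secret minus Glutamate) of the tested members of 25 gene lists and 6 marker lists, with 1 circle per gene, a bar at the list median and a dashed line at the median of all tested genes. Red circles met the unadjusted criterion. Ribosomal proteins lie wholly to the right of 0, with a median of 0.76, and 19 of 21 glutamate receptor subunits lie to the left.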

How the data were processed

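The deposited values were expected counts, that is, estimated reads per gene, which the authors obtained with Salmon against rat transcripts (build rn6 and the tools STAR and Salmon are named in the submitters' processing notes, without versions). The paper and the labels name different sequencing platforms, and the paper does not treat the Glutamate_secret group. Counts were rounded to whole numbers. The filter filterByExpr (at least 10 counts, and 15 in total) kept 14398 of 31463 rows. A model with 1 mean per group and the replicate number as a block was fitted to all 18 libraries in edgeR 4.0.16 (R 4.3.3, TMM scaling, two-sided quasi-likelihood test, Benjamini-Hochberg adjustment). The code was tested on simulated data.

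Replicate numbers were taken to pair the libraries where deviations from group means correlated across genes at over 0.1 in all 3 numbers. For same-numbered Glutamate_secret and Glutamate libraries the correlations were 0.705, 0.892 and 0.445. Glutamate_secret 3 correlated more with Glutamate 1 (0.569) than with Glutamate 3, so that the pairing was not specific for number 3. Against Glutamate_BPC the values were 0.459, 0.782 and 0.56, and against Glutamate_vesicles 0.712, 0.83 and -0.173, so that number 3 did not pair there.

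CPM were computed at TMM-scaled library sizes, log2 CPM used a prior count of 2, and errors of fold changes are standard errors (SE). The rule for leading genes took rows with a gene symbol, a log2 CPM averaging at least 1, and the same sign in all 3 numbers, and of these the 12 of smallest p on each side. From each list up to 4 members past the unadjusted criterion, or otherwise the member of smallest p, were named, with 12 fixed genes (Arc, Atf3, Bdnf, Ddit3, Fbln2, Fos, Gemin7l1, Gfap, Hmox1, Npas4, Snap25 and Timp1) and the 3 of smallest p per direct comparison. 1 gene that the rule names is not reported here. The groups, lists and rules were chosen with earlier results of these data known. Alternatives were another test, DESeq2 1.42.0, other size factors, other filters, no block, no rRNA rows, a covariate for the log2 rRNA share, the 6 libraries of a comparison alone, and each library left out. Of the tested genes, 90.5% matched a RefSeq symbol (GRCr8), and 78 rows were rRNA.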

Additional observations from a re-analysis of the deposited data

How the results depend on the processing

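No call was made at an adjusted p below 0.05 in the quasi-likelihood fit, and the settings that made any are named in the report. The number of genes past the unadjusted criterion (463 in Glutamate_secret against Glutamate, 177 against Glutamate_BPC, 540 against Glutamate_vesicles) depended on the setting. Without the replicate block, it was 97, 67 and 90. The likelihood-ratio test gave 671, 288 and 840, and DESeq2 gave 815, 293 and 993. In DESeq2, 581 genes were higher and 234 lower, compared with 267 and 196 in edgeR. Without a filter on low counts the numbers were 650, 287 and 823. When the log2 rRNA share was a covariate they were 2033 (894 higher and 1139 lower), 975 and 502, and with the 6 libraries of the comparison alone 1844, 316 and 610. Leaving out single libraries gave 191 to 1183, 81 to 653 and 69 to 2060. RLE size factors (531), a stricter filter (430) and removal of rRNA rows (467) stayed within 1.5 times of 463. The cause of these shifts was not tested. No setting moved the median log2 fold change of all genes beyond -0.062 to 0.029. The median of the ribosomal proteins was 0.81 with RLE size factors and 0.81 in DESeq2, and that of the glutamate receptor subunits was -0.54 and -0.55.

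The fold changes of 76 named genes against Glutamate were followed under alternatives. Of 1135 such values, 1114 kept their direction and their side of the threshold, 7 passed the threshold only there, and 14 were reversed, in 4 genes. Leaving out single libraries, Hmox1 ranged from -0.88 to 0.0405 (the latter without Glutamate 1). Gfap ranged from -0.30 to 0.12 and was above 0 without Glutamate_secret 3 (0.0144), Glutamate 1 (0.0251) and Glutamate 3. Snap25 was -0.0019 in the likelihood-ratio test, -0.33 with the covariate, -0.026 in the 6 libraries alone, and from -0.22 to 0.30 without single libraries, below 0 in 4 of these 6 fits. Dmpk, also against Glutamate, was -0.15 without the block and from -0.20 to 0.26 without single libraries. It was below 0 without Glutamate_secret 2 or Glutamate 2. The difference of Dmpk from Glutamate_BPC is not among these values.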

Other observations

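The genes of this section were chosen after their values were seen. Among genes of macrophages, Mrc1, the mannose receptor of resident macrophages, had 0, 0.0885 and 0 CPM in Glutamate_secret and 0, 4.38 and 1.75 CPM in Glutamate. Maf, a transcription factor of macrophages and other cells, had 3.47, 3.63 and 4.53 CPM against 5.68, 8.70 and 12.3 CPM, with no overlap. Both met the unadjusted criterion, as did Stab1, while the summed microglial markers were higher in Glutamate_secret for numbers 2 and 3. Among genes of myelin formation, Myrf, the transcription factor that drives it, had 6.93, 37.7 and 2.90 CPM against 26.3, 62.3 and 21.1 CPM. Ugt8, which makes galactolipids of myelin, had 6.46, 22.2 and 1.63 CPM against 13.0, 40.6 and 11 CPM, and Bcas1, a marker of newly myelinating cells, had 177, 294 and 97.8 CPM against 298, 406 and 281 CPM. Each of these was lower within each number with overlapping ranges. Other genes of the lineage went the other way: 5 of its 12 markers had a log2 fold change above 0, 2 were higher within each number, and the summed markers were higher in Glutamate_secret for number 2 (1627 against 1340 CPM). Rsad2, an antiviral interferon target, had 0, 0.708 and 0 CPM against 0.258, 15.8 and 0.292 CPM, so that its level rested on Glutamate 2.

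Single genes of the cytoskeleton and of membrane repair met the criterion with a higher level, and other such genes did not, for example Vim, the gene of the filament protein vimentin, with 767, 965 and 656 CPM in Glutamate_secret and 537, 309 and 824 CPM in Glutamate. Dysf, which encodes the membrane repair protein dysferlin, had 20.3, 40.6 and 15.7 CPM in Glutamate_secret and 11.5, 12.5 and 7.49 CPM in Glutamate, with no overlap and a log2 fold change of 1.29 ± 0.44 (SE). Capg, an actin-capping protein, had 38.9, 12.7 and 102 CPM against 14.1, 2.98 and 27.2 CPM. Pdlim7, a scaffold of actin fibres, had 142, 59.0 and 152 CPM against 98.4, 9.65 and 46.4 CPM, and S100a4, a calcium-binding protein of motile cells, had 32.0, 2.26 and 94.7 CPM against 15.5, 0.317 and 12.5 CPM. These met the unadjusted criterion and were higher within each number, and Capg, Pdlim7 and S100a4 overlapped between the groups. The adjusted p was 0.938 for each in the quasi-likelihood test. Without the replicate block, Dysf met the criterion, and Capg, Pdlim7 and S100a4 did not. Of the 6 fits without 1 library, Dysf and Pdlim7 met it in 5, Capg in 4 and S100a4 in 3.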
